A study of Mus musculus with 2 samples.

Results

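The machinery of major histocompatibility complex (MHC) class I presentation was examined in leukocytes of mouse tumors, from hosts with and without natural killer (NK) cells. Melanoma-like cells sequenced with them were examined as well. It was taken as a list of 32 genes by name. Of these, 31 were among the 31053 genes of the count matrices and *H2-T10* was not, and 28 had at least 20 unique molecular identifiers (UMIs, counts of distinct transcript molecules) over both libraries. *H2-Q1*, *H2-Q2* and *H2-T3* fell under that minimum. The control library came from untreated C57BL/6 hosts aged 8 weeks, 4 days after injection of *Braf* V600E-driven melanoma cells. In the injected cells *Ptgs1* and *Ptgs2*, which encode the cyclooxygenases needed for prostaglandin synthesis, had been knocked out. Hosts of the NK cell-depleted library had the same strain, age, tumor cells and day. They also received 200 µg of anti-NK1.1 (clone PK136) and 30 µg of anti-asialo GM1 per mouse on days 0 and 2. Live CD45+ cells, that is leukocytes, were sorted from 10 pooled tumors per group, so each group was 1 library with no replicate. The label field for genotype gave wild-type tumor cells in both groups, whereas titles and design gave the knockout.

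MHC class I molecules display peptides of the cell's own proteins to CD8+ T cells. Proteasomes cut proteins into peptides, the TAP transporter moves them into the endoplasmic reticulum, and chaperones load them onto a heavy chain paired with beta-2 microglobulin. Interferons are known to raise most of these genes, and NK cells are known to read classical and nonclassical class I molecules through inhibitory and activating receptors. Melanomas are known to lose class I at the cell surface under immune pressure.

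The kept cells numbered 5504 in the control library, with 30836363 UMIs in all and a median of 4318. The NK cell-depleted library had 4859, with 33055233 UMIs in all and a median of 5156. Members made up 0.872% and 0.880% of UMIs. The libraries shared 7 cell barcodes. Clustering gave 35 clusters, named by markers as 11 classes, and 7 classes held at least 50 cells in each library and were compared. NK-like cells numbered 544 in the control library and 1 in the NK cell-depleted library. Clusters that met no name held 17.5% and 13.9% of cells. The study had added parental melanoma cells, at 3.5%, to both sorted samples, as a gauge of how far samples vary. The paper gives a high purity for the sort of CD45+ cells. The melanoma-like cluster (123 and 266 cells) was named from *Sparc*, the 1 listed marker among its 50 leading genes. *Cav1*, *Cdh2*, *Cd63* and *Mitf* were also present, *Mitf* at 36 and 60 UMIs. The pigment cell genes *Mlana*, *Pmel*, *Dct*, *Tyrp1*, *Tyr*, *Slc45a2* and *Sox10* were at 0 UMIs in both libraries. So were the listed markers *S100b*, *Gpc3* and *Ptgds*, while *Col1a2*, *Timp3* and *Bgn* had at most 5 UMIs in a library. Transcripts of *Ptgs2*, knocked out in the injected line, were present in these cells at 530 and 789 UMIs per 1000000 (CPM). Those of *Ptgs1*, also knocked out, were at 85 and 136 UMIs in all. Added parental cells and cells of the tumor cannot be told apart here.

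Of the 32 genes, 20 lie on chromosome 17 (GRCm38.p6) between 33919478 and 37483554, a stretch of 3.56 Mb that is the mouse MHC. The others lie on chromosomes 1, 2, 3, 6, 8, 11, 13 and 14. Promoters from RefSeq (GRCm38.p6, 250 bases before to 50 after the start) were at hand for 25 members and absent from the table for 7. Both strands were searched for the NF-κB (κB) motifs that stand in *H2-K1* and in *B2m*, for the interferon-stimulated response element GAAANNGAAA and for the gamma-activated sequence TTCNNNGAA. The κB motif GGGGATTCCC, whose letters were read from *H2-K1*, was also found in *H2-D1*, *H2-Q6* and *H2-Q7*, against 0.107% of 32851 promoters. GGGACTTTCC, whose letters were read from *B2m*, was found in no other member and in 0.155% of promoters. The response element was found in *B2m*, *H2-T22*, *H2-T23*, *Psme1* and *Erap1* (3.44% of promoters), and the gamma-activated sequence in *H2-M3* and *Psmb8* (8.30%). Only exact letters were counted. A promoter without a match, such as that of *H2-K1* or *H2-D1*, may therefore hold a variant of these elements. The windows below run from 200 to 51 bases before the start and are shown because these 6 genes carry the contrasts reported here, namely between classical and nonclassical heavy chains and between *H2-Q10* and its relatives. Capitals mark a motif match, and in *H2-Q10* the window at the κB position.
H2-K1: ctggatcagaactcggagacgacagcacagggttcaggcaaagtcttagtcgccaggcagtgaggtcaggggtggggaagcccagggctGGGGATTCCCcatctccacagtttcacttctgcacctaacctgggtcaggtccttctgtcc
H2-D1: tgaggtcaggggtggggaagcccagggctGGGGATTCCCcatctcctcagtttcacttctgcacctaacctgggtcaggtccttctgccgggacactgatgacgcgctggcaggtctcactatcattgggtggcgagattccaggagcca
H2-Q7: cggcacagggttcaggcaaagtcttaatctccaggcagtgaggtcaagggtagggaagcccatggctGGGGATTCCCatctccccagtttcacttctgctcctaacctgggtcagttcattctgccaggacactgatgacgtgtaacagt
H2-Q10: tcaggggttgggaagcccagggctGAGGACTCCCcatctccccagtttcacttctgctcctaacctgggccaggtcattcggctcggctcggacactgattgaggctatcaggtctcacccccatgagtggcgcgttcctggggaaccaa
H2-T23: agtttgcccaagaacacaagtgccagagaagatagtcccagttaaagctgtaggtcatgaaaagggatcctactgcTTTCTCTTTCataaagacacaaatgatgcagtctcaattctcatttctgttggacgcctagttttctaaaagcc
B2m: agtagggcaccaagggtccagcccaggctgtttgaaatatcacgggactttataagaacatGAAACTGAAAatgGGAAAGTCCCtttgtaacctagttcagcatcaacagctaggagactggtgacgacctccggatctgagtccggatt
*H2-K1* is at chr17:34000398-34000547 on the minus strand, *H2-D1* at chr17:35262894-35263043 on the plus strand and *H2-Q7* at chr17:35438955-35439104 on the plus strand. *H2-Q10* is at chr17:35469889-35470038 on the plus strand, *H2-T23* at chr17:36032752-36032901 on the minus strand and *B2m* at chr2:122147487-122147636 on the plus strand. The κB motif began 111 bases before the start in *H2-K1*, 171 in *H2-D1* and 133 in *H2-Q7*. In *H2-Q10* the same 11 bases that precede the motif of *H2-D1* were followed, 176 bases before the start, by GAGGACTCCC. Counted from 1 at the motif's 5′ end, it differed from the κB motif by G2A and T6C. In *B2m* the second κB motif lay on the opposite strand, beginning 126 bases before the start, beside a response element. That of *H2-T23* began 124 bases before the start. Matches describe letters only.

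Classical class I was the most abundant part of the machinery in every leukocyte class. Levels are CPM over all UMIs of a class, and all intervals are 95% and cover counting error only. *H2-K1* and *H2-D1* encode the heavy chains of the classical molecules H-2K and H-2D, and *B2m* the light chain of all of them. Among classes of at least 50 cells, *H2-K1* ranged in control leukocytes from 1003 CPM in cDC1-like cells, the conventional dendritic cells (DCs) specialized in cross-presentation, to 3353 CPM in NK-like cells. T-like cells, at 3294 CPM, could not be told from NK-like cells within counting error. In the NK cell-depleted library the highest level was that of eosinophil-like cells, at 6063 CPM from 69 cells, 1.67-fold above the next class. *B2m* was highest in migratory DC-like cells, DCs on their way to lymph nodes, with 3231 CPM in control and 4341 CPM in NK cell-depleted tumors. In the control library it could not be told from the 3216 CPM of monocyte/macrophage-like cells. Melanoma-like cells held the lowest level of all 3 genes in both libraries.

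**Figure D1:**
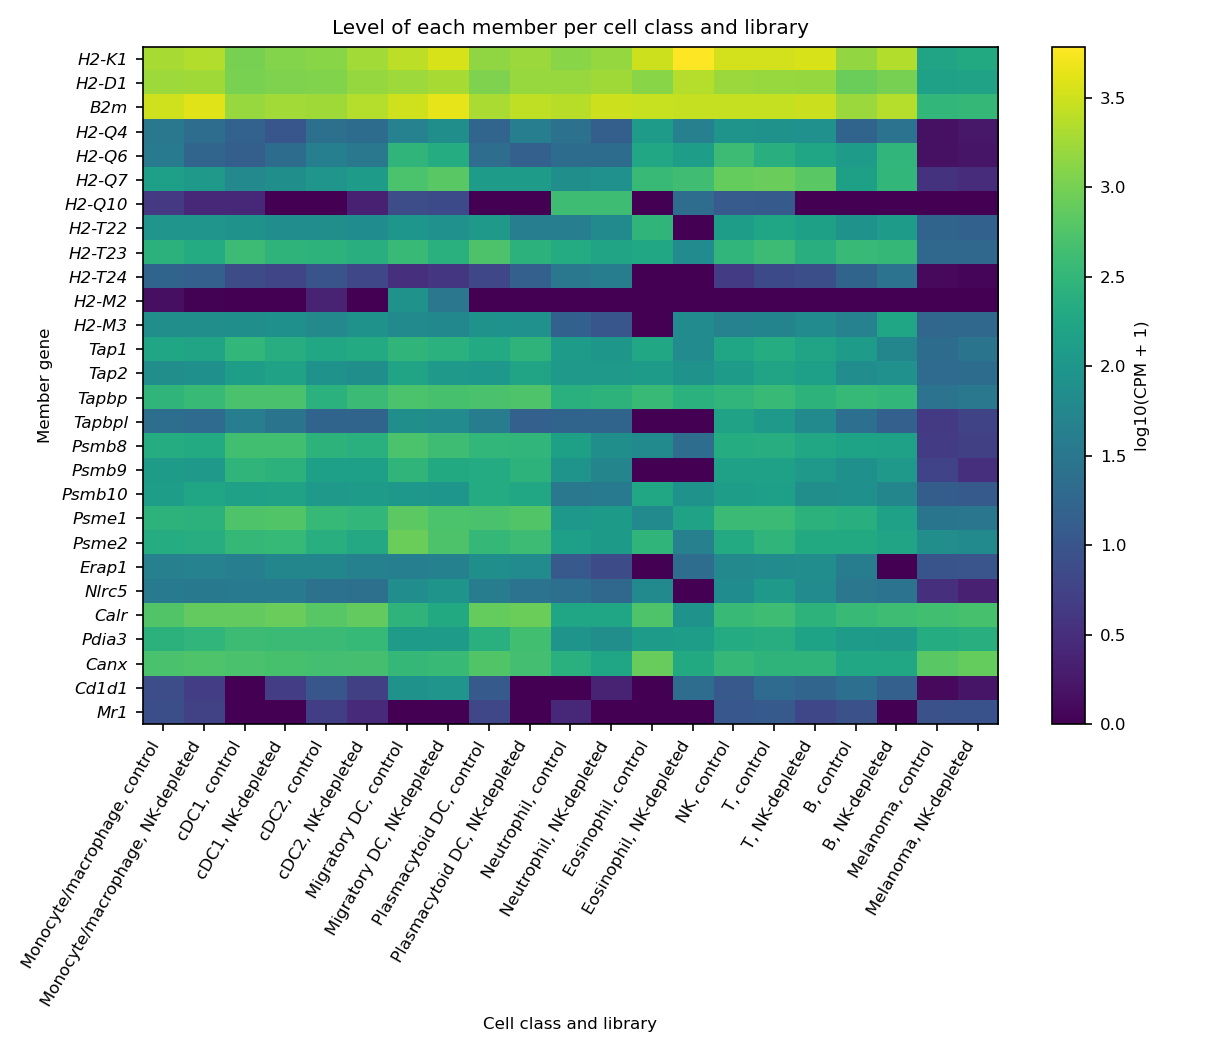
Level of 28 members (rows) in each cell class and library (columns), as log10(CPM + 1), with lighter colours for higher levels. The classical genes H2-K1, H2-D1 and B2m are high in every leukocyte class and lowest in melanoma-like cells, H2-Q10 stands out in neutrophil-like cells and H2-M2 in migratory DC-like cells.

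Some nonclassical heavy chains were concentrated in 1 class. *H2-Q10*, known from liver as a secreted class I heavy chain, was at 404 CPM in control and 400 CPM in NK cell-depleted neutrophil-like cells. The next class was at 11.1 CPM in the control library (NK-like cells) and at 21.7 CPM in the NK cell-depleted library (eosinophil-like cells). A UMI of *H2-Q10* was seen in 34.0% (29.5 to 38.8) of 426 control and in 36.9% (32.7 to 41.2) of 510 NK cell-depleted neutrophil-like cells, at median depths of 1169 and 1312 UMIs. The share in monocyte/macrophage-like cells was 1.54% and 0.906%, at median depths of 4857 and 5394 UMIs. Neutrophils were thus the main holders of *H2-Q10* among these leukocytes. Because H2-Q genes are near copies of each other, reads can be split or lost between them, so their single values are uncertain.

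*H2-M2* was seen at 87.6 CPM (38 UMIs in 9 of 72 cells) and 30.1 CPM (10 UMIs in 6 of 55 cells) in migratory DC-like cells, and at no more than 1.34 CPM in any other class of the control library. *H2-T24* was highest in neutrophil-like cells, at 31.7 and 37.8 CPM, with the next class, monocyte/macrophage-like cells, at 15.6 and 13.4 CPM. *Cd1d1*, whose product shows lipids to NKT cells, was at 83.0 and 93.4 CPM in migratory DC-like cells, where 29.2% and 21.8% of cells had a UMI. These 3 genes had the same leading class in both libraries. Of the loading and cutting machinery, *Psme2*, a subunit of the proteasome activator PA28, was also highest in migratory DC-like cells, at 844 and 534 CPM, 2.53-fold and 1.59-fold above the next class. *Psmb8*, an interferon-inducible subunit of the proteasome, led in migratory DC-like cells of the control library (521 CPM, with cDC1-like cells at 439 CPM) and in cDC1-like cells of the other (432 CPM against 407 CPM), and these neighbours did not differ beyond counting error.

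The share of a member's control UMIs that lay in NK-like cells differed widely between members. NK-like cells held 4.38% of all control UMIs. They held 32.4% (30.1 to 34.7) of the 1616 UMIs of *H2-Q6*, 24.5% (21.6 to 27.6) of *Tapbpl* and 21.8% of *H2-Q7*. *H2-Q6* and *H2-Q7* encode Qa-2 heavy chains, and *Tapbpl* a peptide editor related to tapasin. For *H2-Q4* the share was 13.7%, for *Nlrc5*, the transactivator of class I genes, 9.28%, and for *H2-K1* 9.17%. The chaperones *Calr* and *Canx* were below the share of all UMIs, at 2.93% and 2.89%. Free RNA of NK cells could have entered other control cells. From 10 NK transcripts, it was at most 0.100% of UMIs in monocyte/macrophage-like cells, or 1.13% of their *H2-Q6*. In neutrophil-like cells it was at most 0.901% of UMIs, or 16.5% of *H2-Q6* and 1.41% of *Psmb8*. *Gzma*, the most abundant of these transcripts, was at 5757 CPM in NK-like cells.

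The study compared hosts with and without NK cells, and the next question was which members differed within a class. Since each group was a single library, nothing could be tested and no difference has a replicate check. Ratios are control divided by NK cell-depleted, and 0.5 UMI was added to each sum on the log2 scale. A gene with at least 20 UMIs over both libraries was counted. It was called where the control level was at least 25% higher or 20% lower and the interval of the ratio left out 1. In monocyte/macrophage-like cells (2659 and 2649 cells) 7 of 27 members were called higher in control, where 12.4% of 11509 genes were, and 2 were called lower, where 11.5% were. Of 8 nonclassical heavy chains counted, 5 were called higher, and of the 3 classical genes none was called. The median log2 ratio was 0.04 over members and −0.01 over all genes.

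*H2-Q6* was at 34.2 CPM in the control and at 15.9 CPM in the NK cell-depleted library, a ratio of 2.14 (1.84 to 2.51). *H2-Q4* was at 32.2 and 21.4 CPM (1.51, 1.30 to 1.74) and *H2-Q7* at 137 and 105 CPM (1.30, 1.22 to 1.39). All H2-Q genes summed were at 206 and 144 CPM, a ratio of 1.43 (1.36 to 1.52), which does not depend on how reads were split among them. *H2-T23* encodes Qa-1, which displays leader peptides of classical heavy chains to the receptor CD94/NKG2A on NK and T cells. It was at 271 and 213 CPM, a ratio of 1.27 (1.21 to 1.33). *Cd1d1* (6.81 and 3.94 CPM, 1.73) and *Mr1* (7.22 and 4.52 CPM, 1.60), whose product shows vitamin B metabolites to MAIT cells, were called higher at levels below 10 CPM. *H2-Q10* was also called, at 47 and 27 UMIs (1.87, 1.14 to 3.13). Its level in these cells was 0.807% and 0.436% of that in neutrophil-like cells, and 6 neutrophil markers stood at 0.276% and 0.241% of theirs. The part of neutrophil RNA in that call was not tested.

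The classical genes lay the other way. *H2-K1* was at 1939 and 2237 CPM (0.867, 0.853 to 0.880), *H2-D1* at 1690 and 1732 CPM (0.976, 0.959 to 0.993) and *B2m* at 3216 and 3976 CPM (0.809, 0.799 to 0.819). Their intervals left out 1, but their size did not reach the fold required for a call. *Calr*, the chaperone calreticulin of the loading complex, was called lower at 561 and 738 CPM (0.761, 0.739 to 0.783). *Psmb10*, an inducible proteasome subunit, was called lower at 128 and 168 CPM (0.762, 0.717 to 0.809). *Tap1*, a subunit of the peptide transporter (167 and 160 CPM, 1.04), *Psmb8* (218 and 202 CPM, 1.08) and *Nlrc5* (36.4 and 32.4 CPM, 1.12, 0.992 to 1.27) were not called.

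**Figure D2:**
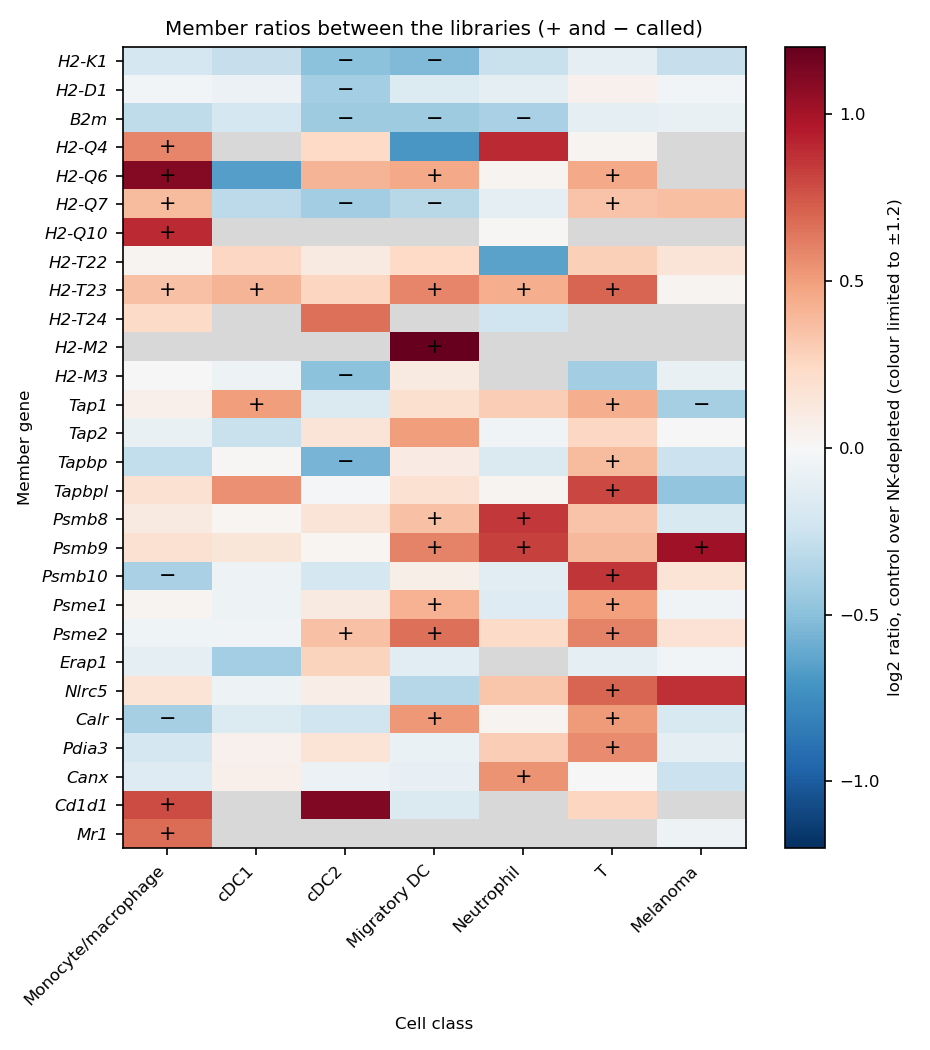
Log2 ratio of control over NK cell-depleted for 28 members (rows) in the 7 classes compared (columns), red for higher in control and blue for lower, grey where a gene had under 20 UMIs. Plus and minus signs mark calls, and H2-T23 has a plus sign in 5 of 7 classes while H2-K1 and B2m have minus signs only.

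These pooled values mixed clusters whose shares differed between the libraries. Monocyte-like cluster 3, led by *Ly6c2*, *Ms4a4c* and *Plac8*, made up 5.90% of control and 18.6% of NK cell-depleted monocyte/macrophage-like cells. Cluster 5, led by *Chil3*, *Cd177* and *Ace*, made up 5.98% and 14.9%. Cluster 2, led by *Arg1*, *Spp1* and *Mmp13*, made up 16.4% and 8.83%. Member levels followed these states: *H2-T23* was at 520 and 296 CPM in cluster 3 and at 143 and 83.1 CPM in cluster 2. Ratios were therefore taken within each of the 12 clusters with enough cells, and again with the share of each cluster set equal between libraries. At these equal shares the median over the 27 members was 0.35, against −0.04 for all genes, and 21 of 27 were above 0, against 16 of 27 in pooled cells.

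Within clusters, 5 of the 17 members counted in all 12 were called higher in control in at least 7. These were the heavy chains *H2-T23* and *H2-Q7*, the transporter gene *Tap1* and the proteasome subunits *Psmb8* and *Psmb9*. *H2-Q6*, counted in 10 of 12 clusters, was also called higher in 7. *H2-T23* had a ratio above 1 in 12 of 12 clusters and was called in 11, with log2 ratios from 0.44 to 1.15. *Psmb8* and *Psmb9* were above 1 in 12 of 12 clusters and called in 7 and 9. *Tap1* was above 1 in 11 and called in 9, with 57.0 to 244 CPM in NK cell-depleted clusters and 75.1 to 355 CPM in control clusters. Of the 2187 genes counted in all 12 clusters, 8.05% were above 1 in all of them, as were 3 of the 17 members so counted, *H2-T23*, *Psmb8* and *Psmb9*. A call of higher in at least 7 clusters was reached by 5.30% of genes and by those 5 of the 17 members. A call in at least 11, a limit set by the value of *H2-T23* itself, was reached by 1.37% of genes and, of these members, by *H2-T23*.

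*B2m* was below 1 in 12 of 12 clusters, as were 7.59% of genes. *H2-K1* was above 1 in 4 of 12 clusters, with log2 ratios from −0.41 to 0.17, and *H2-D1* in 10 of 12, with none of its clusters called. *Calr*, called lower in pooled cells, was above 1 in 3 of 12. Summed, H2-Q, H2-T, immunoproteasome and PA28 genes were each above 1 in 12 of 12 clusters, the 4 transport and editing genes in 11, the 3 classical genes in 3 and the 3 chaperones in 2. The constitutive proteasome subunits *Psmb5*, *Psmb6* and *Psmb7* were also above 1 in 12 clusters, by a log2 ratio of 0.03 to 0.39. At equal cluster shares the summed log2 ratio was 0.66 for H2-T genes, 0.61 for H2-Q genes, 0.34 for immunoproteasome subunits, 0.33 for PA28, 0.18 for transport and editing, 0.16 for the constitutive subunits, −0.10 for the classical genes and −0.14 for chaperones. Lists of interferon-gamma and type I interferon response genes without members stood at 0.51 and 0.47, and MHC class II at 0.46. A list of 12 leukocyte transcripts stood at 0.24. The type I list, MHC class II and the leukocyte transcripts were also each above 1 in 12 of 12 clusters, and the interferon-gamma list in 11. Members of 1 role differed: *Psmb10*, called lower in pooled cells, was at 0.050 at equal shares, *Tapbp* at 0.014, *H2-M3* at 0.13 and *Erap1*, a peptidase that trims peptides, at −0.04, while *H2-D1* was at 0.08.

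Each inducible proteasome subunit takes the place of a constitutive one, and the ratio of their UMIs was taken, which describes transcripts and not assembled proteasomes. *Psmb8*, *Psmb9* and *Psmb10* summed over *Psmb5*, *Psmb6* and *Psmb7* gave 2.27 in control and 2.25 in NK cell-depleted cDC1-like cells and 2.35 and 2.73 in migratory DC-like cells. T-like cells were at 2.18 and 1.91, and NK-like cells at 1.92. Monocyte/macrophage-like cells were lower, at 1.29 (1.24 to 1.34) and 1.46 (1.41 to 1.52), and ran from 0.354 to 2.47 over clusters. While the pooled ratio was higher in the NK cell-depleted library, 11 of 12 clusters had the higher ratio in control. Cluster 3 was at 2.47 and 1.99 and cluster 14 at 1.83 and 1.36, whereas cluster 5 was nearly level at 1.713 and 1.708. No intervals were taken for single clusters. Neutrophil-like cells were at 1.76 (1.34 to 2.33) and 1.13 (0.865 to 1.47). Melanoma-like cells stood apart at 0.0456 (0.0364 to 0.0564) and 0.0446 (0.0373 to 0.0529), with no free leukocyte RNA taken off.

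**Figure D3:**
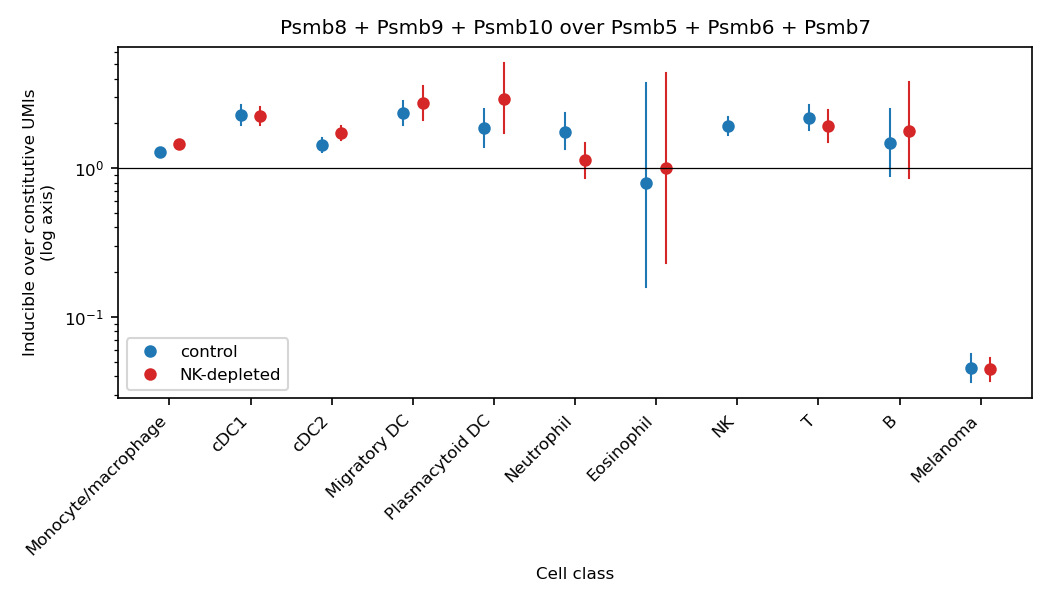
UMIs of the inducible subunits Psmb8, Psmb9 and Psmb10 over those of the constitutive subunits Psmb5, Psmb6 and Psmb7 (log axis) in each class, blue for control and red for NK cell-depleted, with bars for 95% counting intervals. Leukocyte classes lie near or above 1 and melanoma-like cells near 0.05 in both libraries.

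The DC subsets differed in which members were called. In cDC1-like cells (96 and 111 cells) 2 of 22 members were called higher, against 5.38% of genes, and none lower, against 6.14%. They were *Tap1*, at 317 and 224 CPM (1.42, 1.15 to 1.75), and *H2-T23*, at 385 and 289 CPM (1.33, 1.10 to 1.61). *H2-K1* (1003 and 1218 CPM), *H2-D1* (1068 and 1118 CPM), *B2m* (1574 and 1825 CPM), *Psmb8* (439 and 432 CPM) and *Nlrc5* (34.0 and 35.5 CPM) were not called. When cells were called one by one from marker UMIs, 80 cells of this class over both libraries were called cDC1 and 112 cDC2, so its name rests on the markers of the whole cluster.

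In cDC2-like cells, the conventional DCs that mainly prime CD4+ T cells (203 and 235 cells), 1 of 25 members was called higher, against 8.62% of genes, and 6 lower, against 11.0%. *Tapbp*, or tapasin, which bridges TAP and the empty heavy chain, was at 256 and 378 CPM (0.677, 0.595 to 0.771). *H2-K1* was at 1296 and 1823 CPM (0.711, 0.671 to 0.753), *H2-D1* at 1151 and 1530 CPM (0.753) and *B2m* at 1722 and 2311 CPM (0.745, 0.708 to 0.783). *H2-Q7* (91.4 and 122 CPM) and *H2-M3*, which presents formylated peptides (59.1 and 83.1 CPM), were the other members called lower. *Psme2* was called higher at 246 and 193 CPM (1.28, 1.09 to 1.49). *Tap1* (181 and 204 CPM), *Psmb8* (277 and 248 CPM), *Nlrc5* (25.5 and 24.1 CPM) and *H2-T23* (277 and 231 CPM) were not called. The 3 classical genes summed had a log2 ratio of −0.44 in pooled cDC2-like cells, of −0.24 in cluster 6, led by *Cd209a* and *Wnt11*, and of −0.22 in cluster 21, led by *Cdh1* and *Ifitm1*. Cluster 6 held 73 control and 150 NK cell-depleted cells and cluster 21 held 116 and 63, and their shares thus differed between libraries. Within cluster 6, 3 members were called higher, against 5.84% of genes, and 2 lower, against 7.44%. Within cluster 21, 3 were called higher, against 7.52%, and 1 lower, against 8.94%. With cluster shares set equal, the median log2 ratio of the 25 members was 0.16, against −0.04 for all genes, and 16 were above 0.

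Migratory DC-like cells (72 and 55 cells) had 8 of 25 members called higher, against 5.77% of genes, and 3 called lower, against 8.57%. *H2-M2*, described above, had the largest ratio (2.91, 1.42 to 6.54). Its log2 ratio was 1.49, and 0.83 (−0.22 to 2.09) without the 5 cells of each library with the most member UMIs. *Psme2* (844 and 534 CPM, 1.58), *Psmb9* (297 and 196 CPM, 1.52), *H2-T23* (371 and 247 CPM, 1.14 to 1.98) and *Calr* (286 and 199 CPM, 1.44) followed. *H2-Q6* (302 and 220 CPM), *Psme1* (678 and 506 CPM) and *Psmb8* (521 and 407 CPM) were the others, so 4 of the 5 immunoproteasome and PA28 genes were called higher. The constitutive subunits moved the same way, at 392 and 256 CPM summed (1.53, 1.17 to 2.01), against 1.31 (1.12 to 1.55) for the inducible subunits, and *Psmb6* was called higher at 145 and 75.4 CPM (1.93). *H2-K1* was called lower at 2517 and 3626 CPM (0.694, 0.639 to 0.754), *B2m* at 3231 and 4341 CPM (0.744, 0.691 to 0.802) and *H2-Q7* at 521 and 657 CPM (0.793, 0.655 to 0.959). *H2-D1* (1719 and 1932 CPM), *Tap1* (293 and 256 CPM) and *Nlrc5* (71.4 and 90.4 CPM) were not called. Without those 5 cells, 4 members were called higher, and with cells thinned to 2000 UMIs 2 were.

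Neutrophil-like cells (426 and 510 cells) had 4 of 23 members called higher in control, against 6.90% of genes, and 1 lower, against 7.52%. *Psmb8* was at 139 and 76.8 CPM (1.81, 1.27 to 2.58) and *Psmb9* at 89.7 and 50.8 CPM (1.77, 1.14 to 2.75). *Canx*, the chaperone calnexin that holds new heavy chains, was at 250 and 172 CPM (1.45, 1.14 to 1.86), and *H2-T23* at 215 and 159 CPM (1.35, 1.04 to 1.75). *B2m* was called lower at 2386 and 3134 CPM (0.762, 0.712 to 0.814). *H2-K1* (1268 and 1525 CPM), *H2-D1* (1606 and 1730 CPM), *Tap1* (121 and 99.0 CPM) and *Nlrc5* (22.9 and 18.2 CPM) were not called, and *H2-Q10* was level (404 and 400 CPM). These cells were shallow, so the *Psmb8* ratio rests on 79 and 59 UMIs. Some transcripts of other cells were also higher in control: MHC class II genes were at 2019 and 1222 CPM and 10 NK transcripts at 111 and 1.30 CPM. A list of 5 macrophage transcripts was not, at 1839 and 1869 CPM. Free NK RNA could give at most 1.41% of *Psmb8*, as stated above, and the part of RNA from cells with MHC class II was not tested.

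T-like cells (287 and 220 cells) had the most members called higher, 12 of 24 against 7.35% of genes, and none lower, against 6.36%. Their median log2 ratio was 0.36, against 0.01 for all genes. *Psmb10* was at 135 and 74.1 CPM (1.82), *Tapbpl* at 111 and 63.2 CPM (1.75, 1.16 to 2.70) and *Nlrc5* at 106 and 65.0 CPM (1.63, 1.08 to 2.51). The class I transactivator *Nlrc5* was thus among the called members. *H2-T23* was at 390 and 240 CPM (1.62, 1.31 to 2.02), *Psme2* at 296 and 195 CPM (1.52), *Pdia3*, the thiol oxidoreductase of the loading complex, at 228 and 154 CPM (1.48), *Calr* at 399 and 280 CPM (1.43) and *Psme1* at 373 and 266 CPM (1.41). The other 4 called were *H2-Q6*, *Tap1* (219 and 161 CPM), *Tapbp* and *H2-Q7*. *H2-K1* (3294 and 3550 CPM), *H2-D1* (1594 and 1536 CPM), *B2m* (2795 and 3014 CPM) and *Psmb8* (225 and 177 CPM, 1.27) were not called.

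Called one by one, 303 cells of the T-like class over both libraries were called T cells and 168 ILC2, another lymphocyte type, and with T cells called in that way 8 members were called higher. Transcripts of other cells moved the same way in T-like cells. MHC class II genes were at 548 and 179 CPM, 5 macrophage transcripts at 208 and 84.9 CPM, and NK transcripts at 313 and 128 CPM. Free NK RNA could account for at most 4.13% of the control level of *H2-Q6* and 1.61% of that of *Nlrc5*. Leaving out T-like cells with at least 2 macrophage transcripts (5 and 4 cells) still gave 12 calls, and leaving out cells with at least 2 NK transcripts gave 10. Only 4 members were called among deeper cells with few mitochondrial UMIs (113 and 72 cells), and 2 with cells thinned to 2000 UMIs (127 and 77 cells left out).

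*H2-T23* was the member called in the most classes. It was higher in control in 5 of 7 classes, and in single clusters its ratio was above 1 in 23 of 23 and called in 20. Of the 1702 genes counted in all 23 clusters, 5.29% were above 1 in all of them and 1.53% were called higher in at least 20, limits set by the value of *H2-T23* itself. Of the 16 members so counted it was the only one to meet either. Clusters 12 (melanoma-like), 15 (unnamed) and 22 (monocyte/macrophage-like), the latter pair led by *Retnla*, were the exceptions. In the classes its control level ran from 17.7 CPM in melanoma-like cells to 537 CPM in plasmacytoid DC-like cells, and its NK cell-depleted level from 17.4 CPM to 289 CPM. *B2m*, by contrast, was below 1 in 23 of 23 clusters, as were 2.17% of these genes.

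Melanoma-like cells had little classical class I as a share of their UMIs. Parental cells added to both sorted samples cannot be told apart from cells of the tumor, so these levels need not be those of tumor cells. *H2-K1* was at 161 CPM (698 UMIs) in the control and 195 CPM (1557 UMIs) in the NK cell-depleted library, *H2-D1* at 147 and 151 CPM and *B2m* at 313 and 332 CPM. Summed, the 3 genes were at 621 and 678 CPM, 5.87-fold below the lowest and 12.6-fold below the highest leukocyte class of the control library. Over single melanoma-like cells the median of this sum was 474 CPM (control) and 567 CPM (NK cell-depleted), against 6505 and 7452 CPM in monocyte/macrophage-like cells. No melanoma-like cell was without a UMI of the 3 genes. The 90th percentile of melanoma-like cells, at 1055 and 1130 CPM, lay below the 10th percentile of monocyte/macrophage-like cells, at 3357 and 3993 CPM. The low share thus held across the cells rather than in a few of them. In UMIs per cell these deeply covered cells were not lowest: the median over the 3 genes was 14 and 16 UMIs, against 15 and 17 in T-like, 5 and 8 in neutrophil-like and 6 and 9 in B-like cells.

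The inducible proteasome subunits were lower still. *Psmb8* was at 3.69 and 4.26 CPM, *Psmb9* at 4.84 and 2.38 CPM and *Nlrc5* at 10 UMIs in each library, against 450 and 390 CPM for the 3 constitutive subunits. H2-Q genes summed were at 3.45 and 3.38 CPM and *H2-Q10* and *H2-M2* at 0 UMIs. PA28, at 100 and 93.1 CPM, was 2.38-fold below the lowest leukocyte class of the control library. The general chaperones were not low: *Canx*, at 657 and 785 CPM, was 1.42-fold above the highest leukocyte class in the NK cell-depleted library, and in the control library 1.17-fold above it, within counting error, and *Calr* stood at 429 and 488 CPM. Free leukocyte RNA, judged from 12 leukocyte transcripts, could make up 2.78% and 1.92% of the UMIs of melanoma-like cells. It could give 27.6% and 20.3% of the classical genes and 63.8% and 50.3% of the inducible subunits, which would leave 450 and 540 CPM of the first and 7.42 and 8.64 CPM of the second. Taken singly, the computed part was 172% and 91.9% of the level of *Psmb8* and 27.4% and 25.9% of that of *Psmb10*. For *H2-Q7* it was 200% and 119%. The levels of *Psmb8* and *H2-Q7* in these cells could thus be leukocyte RNA in full or nearly so.

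Between libraries, 1 of 22 members was called higher in melanoma-like cells, against 3.81% of genes, and 1 lower, against 17.3%. Both libraries had received added parental cells, so these ratios need not describe cells of the tumor. *Psmb9* was called higher on 21 and 19 UMIs (2.03, 1.04 to 4.00), and *Tap1* lower at 21.0 and 27.7 CPM (0.758, 0.587 to 0.972). Both calls were lost in cells called one by one and without the 5 cells with the most member UMIs, where no member was called. The summed classical genes had a log2 ratio of −0.13, while the median of all genes was −0.16. In cells with at least 1000 UMIs and at most 5% mitochondrial UMIs (79 and 105 cells) it was −0.33 (−0.42 to −0.24), with 5 members called lower. The interferon-gamma response list was at 133 and 146 CPM and MHC class II genes at 383 and 216 CPM in these cells.

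**Figure D4:**
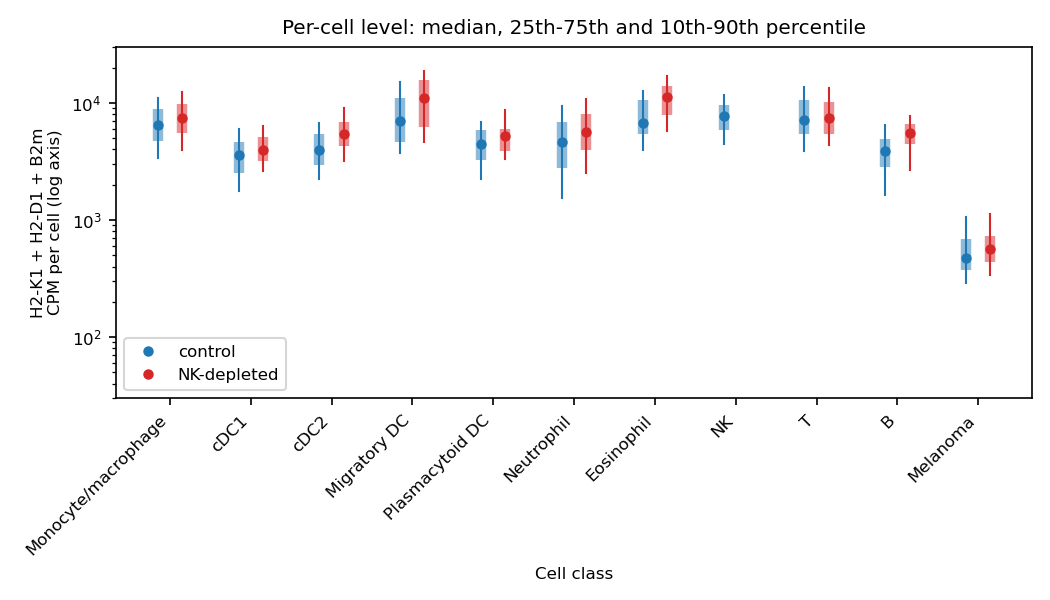
CPM of H2-K1, H2-D1 and B2m summed in single cells (log axis), by class, blue for control and red for NK cell-depleted, with points for medians, thick bars for the 25th to 75th and thin bars for the 10th to 90th percentile. Melanoma-like cells, with medians of 474 and 567 CPM, lie below every leukocyte class.

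Of the other genes of the pathway, 42 were listed and 41 counted in monocyte/macrophage-like cells. None was called higher in control and 9 were called lower, where 12.4% and 11.5% of all genes were. The lowest ratios were those of *Hspa5*, the chaperone BiP (625 and 913 CPM, a log2 ratio of −0.55), *Nfyc*, a subunit of the NF-Y factor that binds MHC promoters (20.3 and 29.4 CPM, −0.53), and *Pdia6*, a disulfide isomerase (288 and 401 CPM, −0.48). In cDC1-like cells 2 of 39 were called higher and 4 lower (all genes 5.38% and 6.14%), in cDC2-like cells 4 and 6 of 40 (8.62% and 11.0%), and in migratory DC-like cells 4 and 3 of 32 (5.77% and 8.57%). In neutrophil-like cells 6 and 2 of 34 were called (6.90% and 7.52%) and in T-like cells 6 and 3 of 35 (7.35% and 6.36%). In melanoma-like cells 0 and 8 of 40 were called (3.81% and 17.3%), so the lower calls were near the share of all genes.

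Classes with under 50 cells in a library were not compared. Plasmacytoid DC-like cells (53 and 28 cells, of which 12 were called plasmacytoid DC and 45 cDC2 one by one) had *H2-T23* at 537 and 265 CPM and the classical genes summed at 4565 and 5853 CPM. B-like cells (61 and 40 cells) had *H2-K1* at 1477 and 2186 CPM, and eosinophil-like cells (15 and 69 cells) at 3146 and 6063 CPM. These values rest on few cells and are given side by side only.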

How the data were processed

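Per the labels, cells were loaded on the 10x Genomics Chromium 3′ v3 system. The authors' notes name bcl2fastq, Cell Ranger and mm10, and the header of the deposited UMI count files gives Cell Ranger 3.0.2. The annotation release is not given in the sources used here. A deposited table of log2 normalized values, made from the same counts, was not used.

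Cells with at least 500 UMIs, at least 200 genes and at most 10% mitochondrial UMIs were kept (90.0% of 6115 control and 87.8% of 5536 NK cell-depleted cells), without the authors' upper limits of 15000 UMIs and 4000 genes, above which lay 212 and 353 of the kept cells. Scanpy 1.11.5 (Python 3.11.15, 2000 variable genes without members and interferon response lists, 15 principal components, 20 neighbours, leidenalg 0.10.2, resolution 2) gave clusters. A name needed at least 3 markers of a type above their level in the other cells. It also needed at least 3 markers among the cluster's 50 leading genes. Where those 50 held no marker of another type, 1 among the leading 10 was enough, as in melanoma-like cluster 12. Differences in naming from the study may come from these rebuilt clusters. Doublets were left in. Scrublet called 2 and 5 cells, too few for the caller to have worked.

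UMIs were summed over the cells of a class and library. Levels are UMIs per 1000000 UMIs of the class (CPM), with exact Poisson intervals. Ratios have exact conditional binomial intervals and shares Clopper-Pearson intervals (scipy 1.17.1), all at 95% and for counting error only. Each group was 1 library, so no test or p-value is given. Without a replicate check, a called gene is one past a fold, not one shown to differ between conditions. Motif letters were read from the promoters of *H2-K1* and *B2m*. The ratios were tested on simulated data. Single transcripts of the H2-Q and H2-T families can be assigned to the wrong copy or lost in counting.

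Named in each class compared were *H2-K1*, *H2-D1*, *B2m*, *Tap1*, *Psmb8*, *Nlrc5* and up to 8 called members by absolute log2 ratio, and of other pathway genes up to 3 called per direction. Members, lists and this rule were chosen with earlier results of these data known. Other genes, such as *H2-Q10* for its levels, were singled out after their values were seen. Alternatives covered the cell filter, doublets, naming cell by cell, clustering, thinning to 2000 UMIs, the median of all genes, and NK and leukocyte RNA. Equal cluster shares (each cluster weighted by its share of the class over both libraries), removal of cells above the 95th percentile of UMIs and of T-like cells with macrophage transcripts, and NK transcripts without *Klra4* and *Klrk1* were added after seeing the data.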

Additional observations from a re-analysis of the deposited data

Results flagged for a closer look

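Some members were called in opposite directions in different classes, and none of these differences between classes was tested. Values are log2 ratios of control over NK cell-depleted in pooled cells of a class, whose cluster shares can differ between the libraries. *H2-Q7* stood at 0.38 in monocyte/macrophage-like and −0.42 in cDC2-like cells. *Tap1* stood at 0.50 in cDC1-like and −0.40 in melanoma-like cells. *Tapbp* stood at 0.38 in T-like and −0.56 in cDC2-like cells, while its lowest value in any of the 23 clusters compared was −0.37. *Psmb10* stood at 0.86 in T-like and −0.39 in monocyte/macrophage-like cells. *Calr* stood at 0.52 in migratory DC-like and −0.39 in monocyte/macrophage-like cells. At equal cluster shares the monocyte/macrophage values were 0.50 for *H2-Q7*, 0.050 for *Psmb10* and −0.20 for *Calr*. Of the 12 clusters, *Psmb10* was called lower in 0 and *Calr* in 3.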

How the results depend on the processing

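Over 48 calls, each of a member in a class, 569 of 573 alternative values kept their direction. The 4 that reversed were *H2-Q7* (log2 ratio 0.011, cells called one by one) and *Psme2* (−0.0035, thinned) in cDC2-like cells, *Psmb8* (−0.29, thinned) in migratory DC-like cells and *Psmb10* (0.050, equal cluster shares) in monocyte/macrophage-like cells. No paired analysis was possible because each group was 1 library, and no library could be left out. All alternatives reused the same libraries, so a kept direction is no replicate check. The cause of these and the following changes was not tested, beyond the fewer cells or UMIs that thinning and stricter filters leave.

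Members called higher changed as follows. In monocyte/macrophage-like cells 7 became 3 with H2-Q and H2-T genes summed, which leaves fewer genes. In cDC1-like cells 2 became 0 under the strict filter (at least 1000 UMIs, at most 5% mitochondrial). In cDC2-like cells 1 became 0 with the authors' upper limits, with members kept in the clustering, after thinning and without cells above the 95th percentile of UMIs, and 3 with cells called one by one. In migratory DC-like cells 8 became 2 after thinning and 4 without the 5 cells richest in members. In T-like cells 12 became 4 under the strict filter and 2 after thinning. In melanoma-like cells 1 became 0 under the strict filter, cell by cell, with members in the clustering, after thinning and without the 5 cells, and 2 relative to the median of all genes.

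Members called lower changed from 0 to 1 (members in the clustering) and 2 (thinned) in cDC1-like cells, and from 6 to 3 (cell by cell, and resolution 1) and 2 (thinned) in cDC2-like cells. They changed from 3 to 1 (cell by cell) in migratory DC-like cells, and from 1 to 2 in neutrophil-like cells (cell by cell, members in the clustering, and without cells holding NK transcripts). In melanoma-like cells 1 became 5 under the strict filter and 0 without Scrublet doublets, cell by cell, thinned, relative to the median, without the 5 cells and without the top 5% of cells.

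In melanoma-like cells the log2 ratio of the summed classical genes moved from −0.13 to −0.33 (strict) and 0.031 (relative to the median), and that of the inducible subunits from 0.24 to −0.37 (strict) and 1.34 (thinned). Less free leukocyte RNA, their levels fell from 621 and 678 to 450 and 540 CPM and from 20.5 and 17.4 to 7.42 and 8.64 CPM. With cells called one by one, the subunit ratio of monocyte/macrophage-like cells moved from 1.29 and 1.46 to 1.24 and 1.41, and the NK share of *H2-Q6*, *H2-Q7* and *H2-K1* from 32.4%, 21.8% and 9.17% to 35.7%, 23.7% and 10.2%.

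Too few cells were left for a value in melanoma-like cells with the upper limits, in migratory DC-like cells under the strict filter, in thinned neutrophil-like cells and in cDC1-like cells at resolution 1 or cell by cell. Depth limits neutrophil-like cells most.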

Other observations

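Clusters that met no name held 965 control and 675 NK cell-depleted cells. In eosinophil-like cells (15 and 69 cells) the classical genes summed were at 7320 and 11170 CPM, with medians of 6682 and 11215 CPM over single cells. *Ptgs2* in cDC2-like cells, which are host cells, was at 203 and 557 CPM. The type I interferon response list was at 11005 and 8642 CPM in neutrophil-like cells.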
